A study of Mus musculus with 2 samples.

Results

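The genes described here make, guide or remove H3K9 and DNA methylation, and the question is whether they carry H3K9me3 themselves in intestinal stem cells. They are 10 of the 21774 protein-coding genes placed on a chromosome, taken by name: Setdb1, Suv39h2, Ehmt1 and Ehmt2, Atf7ip and Trim28, Dnmt1, Dnmt3a and Uhrf1, and Kdm4a. A peak belonged to a gene when it overlapped the gene's span or the 5 kb on either side. This gave 25 of the 40119 peaks in the deposited list. All positions are on GRCm38 (mm10).

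Chromatin immunoprecipitation with sequencing (ChIP-seq) had been done with an H3K9me3 antibody on 1 library, and 1 control library, named input in its title and IgG in its antibody field, stood beside it. Both came from GFP-high, CD24-low intestinal stem cells sorted from 12 mice of the genotype Lgr5-EGFP-IRES-creERT2;setdb1fl/fl, strain C57BL/6, at 8 weeks of age. The Lgr5 locus drives GFP and an inducible Cre in crypt stem cells, and both copies of Setdb1 are floxed. The labels do not say whether Cre had been induced, so Setdb1 may or may not be intact in these cells, and a peak list shows neither the deletion nor the cell type of the sort. With 1 library per group there is no replicate, no test was made between libraries, and intervals cover counting error only.

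H3K9me3 marks silenced chromatin, such as repeats and imprinted alleles. SETDB1, SUV39H2, EHMT1 (GLP) and EHMT2 (G9a) are enzymes that methylate H3K9, and TRIM28 (KAP1) brings SETDB1 to sites bound by KRAB zinc finger proteins, while ATF7IP stabilises SETDB1. DNMT1 copies DNA methylation at replication with the help of UHRF1, which reads hemimethylated DNA and methylated H3K9, DNMT3A sets DNA methylation anew, and KDM4A removes methyl groups from H3K9 and H3K36.

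The mark was listed at most of these genes, in peaks of few tags, and 2 of the genes had none. A peak lay at 8 of the 10 genes (80%), while 55.6% of all protein-coding genes had one under the same rule, and 58.8% of the 13802 protein-coding genes between 6.88 and 128.9 kb long, the range of the 10. Over the gene span alone the count was again 8 of 10, against 46.6% of protein-coding genes. Setdb1 and Suv39h2 had none. At least 5 peaks lay at 3 of the 10 genes, Ehmt2, Dnmt3a and Kdm4a, where 4.57% of protein-coding genes of any length had as many. Over the gene span alone, Ehmt2 had 3 peaks, Kdm4a 4 and Dnmt3a, a gene of 112.9 kb, 5. The share of 4.57% was not taken over the span alone or by length. The 10 genes were chosen with earlier results of these data known, so their counts beside these shares are a description and no test. Of 41 other genes of H3K9 and DNA methylation, 24 (58.5%) had a peak in the span or flanks. Only Ehmt2 had a strong peak, meaning one of the highest 10% of all peaks (a normalized tag count of at least 50.8), while 6.61% of protein-coding genes had one, and that peak lay outside the span of Ehmt2, over its neighbour Zbtb12.

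**Figure D1:**
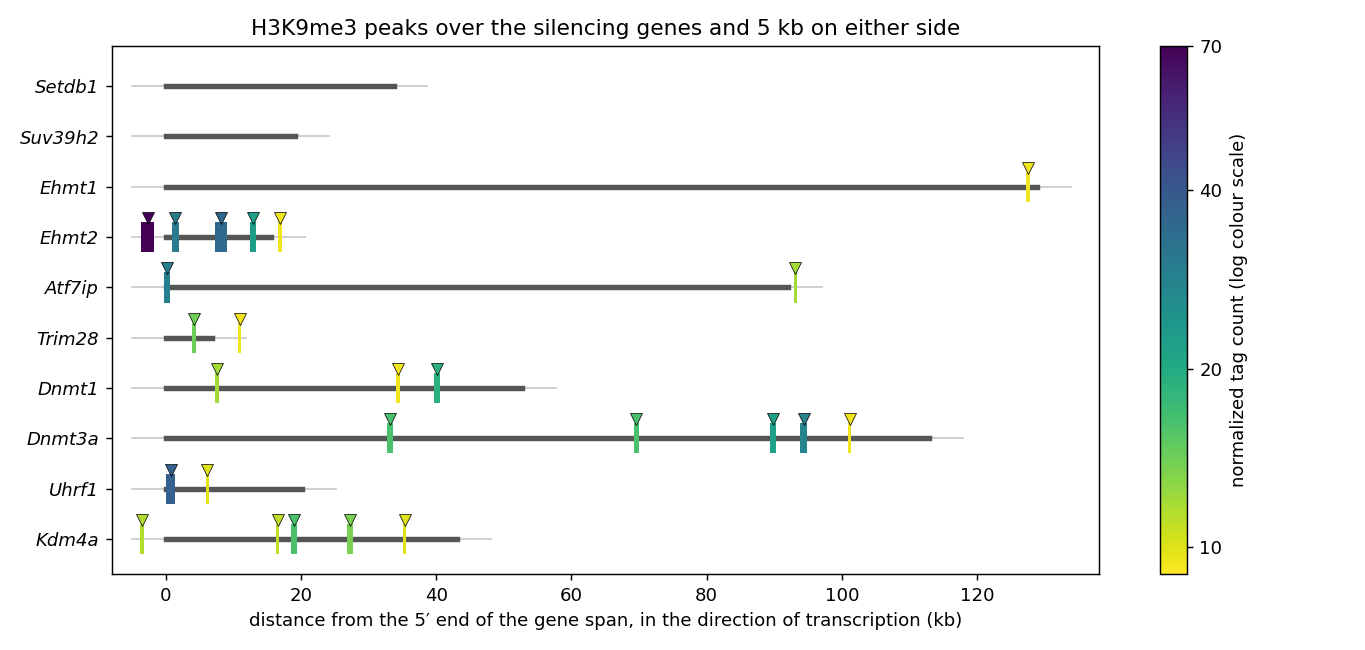
Peaks over the 10 genes, each drawn from the 5′ end of its span in the direction of transcription (x axis, kb; dark bar the gene, thin line the 5 kb flanks). Boxes are peaks at their true width, marked by a triangle and coloured by normalized tag count on a log scale; Setdb1 and Suv39h2 have no peak, and the darkest box, at 69.7, lies before the start of Ehmt2.

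The starts of the genes are where the sequence can be set beside the peaks. RefSeq promoter windows of GRCm38.p6, each 300 bases from 250 before a start to 50 after it, were held for all 10 genes. The 5 windows printed here are those of Atf7ip, Uhrf1 and Dnmt3a that lay wholly inside a peak, and those of Setdb1 and Suv39h2, which had no peak. They are written 5′ to 3′ on the strand of the gene, with CG dinucleotides, the sites of DNA methylation, in capitals.
Atf7ip (chr6:136518601-136518900, plus strand): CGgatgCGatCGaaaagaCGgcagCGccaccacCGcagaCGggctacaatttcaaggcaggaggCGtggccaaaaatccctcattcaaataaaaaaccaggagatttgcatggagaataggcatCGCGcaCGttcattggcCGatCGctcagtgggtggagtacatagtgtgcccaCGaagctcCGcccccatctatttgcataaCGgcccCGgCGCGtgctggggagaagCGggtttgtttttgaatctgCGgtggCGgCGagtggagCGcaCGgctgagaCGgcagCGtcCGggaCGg
Uhrf1, listed start 2 (chr17:56304063-56304362, plus strand): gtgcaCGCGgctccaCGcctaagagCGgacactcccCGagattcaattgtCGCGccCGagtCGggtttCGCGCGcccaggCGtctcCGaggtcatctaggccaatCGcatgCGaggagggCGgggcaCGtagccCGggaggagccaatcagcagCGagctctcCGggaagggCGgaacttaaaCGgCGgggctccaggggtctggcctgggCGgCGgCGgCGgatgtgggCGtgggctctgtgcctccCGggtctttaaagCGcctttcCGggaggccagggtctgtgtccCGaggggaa
Dnmt3a, listed start 3 (chr12:3891494-3891793, plus strand): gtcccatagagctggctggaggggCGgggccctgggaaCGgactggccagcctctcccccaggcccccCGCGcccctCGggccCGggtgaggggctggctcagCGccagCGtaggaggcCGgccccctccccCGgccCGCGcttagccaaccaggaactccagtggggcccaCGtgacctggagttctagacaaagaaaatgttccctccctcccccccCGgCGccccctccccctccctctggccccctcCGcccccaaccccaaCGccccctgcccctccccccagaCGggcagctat
Setdb1 (chr3:95357153-95357452, minus strand): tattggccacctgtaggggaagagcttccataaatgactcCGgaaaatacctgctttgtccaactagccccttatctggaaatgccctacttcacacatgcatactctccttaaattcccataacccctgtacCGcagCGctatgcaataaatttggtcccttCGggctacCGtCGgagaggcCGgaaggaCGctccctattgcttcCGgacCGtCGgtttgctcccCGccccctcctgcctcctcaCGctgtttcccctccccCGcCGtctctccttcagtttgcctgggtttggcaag
Suv39h2 (chr2:3474937-3475236, minus strand): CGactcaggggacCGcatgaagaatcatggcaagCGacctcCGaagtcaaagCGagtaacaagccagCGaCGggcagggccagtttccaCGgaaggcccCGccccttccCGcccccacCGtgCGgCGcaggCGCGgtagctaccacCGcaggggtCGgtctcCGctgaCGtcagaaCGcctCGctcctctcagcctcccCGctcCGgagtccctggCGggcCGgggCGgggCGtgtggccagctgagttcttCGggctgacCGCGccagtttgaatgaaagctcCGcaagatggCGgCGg

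The windows under a peak held 29 CG at Atf7ip, 33 at Uhrf1 and 18 at Dnmt3a. Those without one held 15 at Setdb1 and 33 at Suv39h2, so the counts of the 2 kinds overlapped. The median over 21263 windows of protein-coding genes was 13.

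Among the H3K9 methyltransferases, Setdb1 (chromosome 3, 95323525 to 95357202, minus strand, 33.7 kb) lay in a gap between peaks. The nearest peak beyond its far end was 15.7 kb away, over Anxa9, with 15 tags (Poisson 95% interval 8.40 to 24.7). The nearest before its start was 15.8 kb away, outside any gene of the table, with 17 tags (9.90 to 27.2). Both were close to the median peak of the list, 16.5 tags. The smallest peak in the list held 9 tags, so the missing peak says only that no stretch of Setdb1 reached the caller's criteria at this depth.

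Suv39h2 (chromosome 2, 3455815 to 3474986, minus strand, 19.2 kb) had a still wider gap on one side. A peak of 28.5 tags (19 to 41.1), 1590 bp wide, stood 12.2 kb before its start. Beyond its far end the next peak was 170.5 kb away, over Nmt2.

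The paired enzymes Ehmt1 and Ehmt2, which act together as a complex, had 1 and 5 peaks. Ehmt1 (chromosome 2, 24790769 to 24919643, minus strand), at 128.9 kb the longest of the 10, had 1 peak, near its far end at 24791855 to 24792355. It held 9 tags (4.12 to 17.1), the lowest count in the list, in 500 bp, with the lowest control value, 0.5 tag.

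Ehmt2 (chromosome 17, 34898463 to 34914073, plus strand) is 15.6 kb long and had 5 peaks, which covered 24.1% of the gene and its flanks. The first peak within its span, at 34899344 to 34900388, began just after the starts and held a normalized tag count of 29.9, or 28.5 tags (19 to 41.1), beside 3 control tags. The next, at 34905760 to 34907512, was 1752 bp wide with a normalized tag count of 35.1, or 33.5 tags (23.1 to 46.9), beside 3.5 control tags. The last within the span, at 34910899 to 34911866, had a normalized tag count of 22.5 and 1 control tag.

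The other 2 peaks of Ehmt2 lay in its flanks, over other genes. The tallest of the 25, at 34894819 to 34896728, overlapped the zinc finger gene Zbtb12 and ended 1735 bp before the span of Ehmt2. It was 1909 bp wide, with a normalized tag count of 69.7, or 66.5 tags (51.5 to 84.5), beside 7.5 control tags (3.13 to 15.1), and 5.52% of all peaks were as tall. A peak of 9 tags lay beyond the far end, over Slc44a4. The interval of the Zbtb12 peak lay above the intervals of all peaks within Ehmt2.

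Of the partners of SETDB1, Atf7ip (chromosome 6, 136518789 to 136610850, plus strand) had a peak on its start, at 136518581 to 136519337, which also overlapped Gm44140. It held a normalized tag count of 29.3, or 28 tags (18.6 to 40.5), in 756 bp, and 4.5 control tags (1.35 to 11). Its fold over control in the authors' deposited list, 4.26, was the lowest of the 25 and close to the lowest in the list, 4. No other peak lay in the 92.1 kb of the gene, and a peak of 11.5 tags beyond its far end lay over Plbd1.

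Trim28 (chromosome 7, 13024152 to 13031032, plus strand), the shortest gene at 6.88 kb, had 1 peak inside it, at 13028029 to 13028674. That peak held a normalized tag count of 14.1, or 13.5 tags (7.29 to 22.9), beside the lowest control value, and its centre was 4200 bp after the start. The other, with 9 tags, lay in the flank over Ube2m. Neither partner had a strong peak.

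All 3 DNA methylation genes had a peak within 1 kb of a listed start, but of different height. Of all protein-coding genes with a listed start, 26.9% had one. Dnmt1 and Dnmt3a have 3 listed starts each. With the outermost start alone, Uhrf1 had such a peak and Dnmt1 and Dnmt3a did not, beside 25.6% of protein-coding genes. Dnmt1 (chromosome 9, 20907206 to 20959888, minus strand) had 3 peaks, all within its span. The one near a start, at 20952066 to 20952566, held a normalized tag count of 12.0, or 11.5 tags (5.84 to 20.3), with 1 control tag, and overlapped none of the promoter windows. Deeper in the gene, the peak at 20919308 to 20920283 held 18 tags (10.7 to 28.4) and that at 20925285 to 20925785 held 9, both at the lowest control value.

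Dnmt3a (chromosome 12, 3801559 to 3914443, plus strand) had 5 peaks, all within its 112.9 kb. No peak lay within 1 kb of its first 2 listed starts, whose windows hold 46 and 47 CG. The peak at 3890945 to 3891848 covered the window of the third start, 84416 bp after the first when measured from the peak's centre, and held a normalized tag count of 22.0, or 21 tags (13.0 to 32.1), with 1.5 control tags. As background, Dnmt3a has an internal promoter for a shorter isoform, but the tables do not pair this start with an isoform. The tallest of its peaks followed at 3895343 to 3896470, with a normalized tag count of 27.8, or 26.5 tags (17.4 to 38.7), and 3 control tags. The other 3, at 3834214 to 3835105, 3870769 to 3871580 and 3902451 to 3902951, held 15.5, 15.5 and 9 tags. The 5 intervals overlapped, except that the tallest peak lay just above the smallest.

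Uhrf1 (chromosome 17, 56303337 to 56323486, plus strand, 20.1 kb) had the tallest peak inside any of the 10 spans. It ran from 56303354 to 56304714, 1360 bp that covered 33 bases of the first promoter window and all 300 of the second, with a normalized tag count of 37.2, or 35.5 tags (24.8 to 49.3), and 3 control tags. By its interval it could not be told from the taller peaks within Ehmt2. The second peak of Uhrf1, at 56309247 to 56309747, held 9.5 tags (4.45 to 17.7).

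Kdm4a (chromosome 4, 118136957 to 118180090, minus strand, 43.1 kb), the demethylase, had many small peaks and none near its start. Inside the gene, 4 peaks between 118144494 and 118163795 had normalized tag counts of 9.95 to 16.2, each at the lowest control value. The remaining peak, at 118183349 to 118183849, lay 3.26 kb before the gene, outside any gene of the table, with 11 tags (5.49 to 19.7). Their intervals all overlapped.

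**Figure D2:**
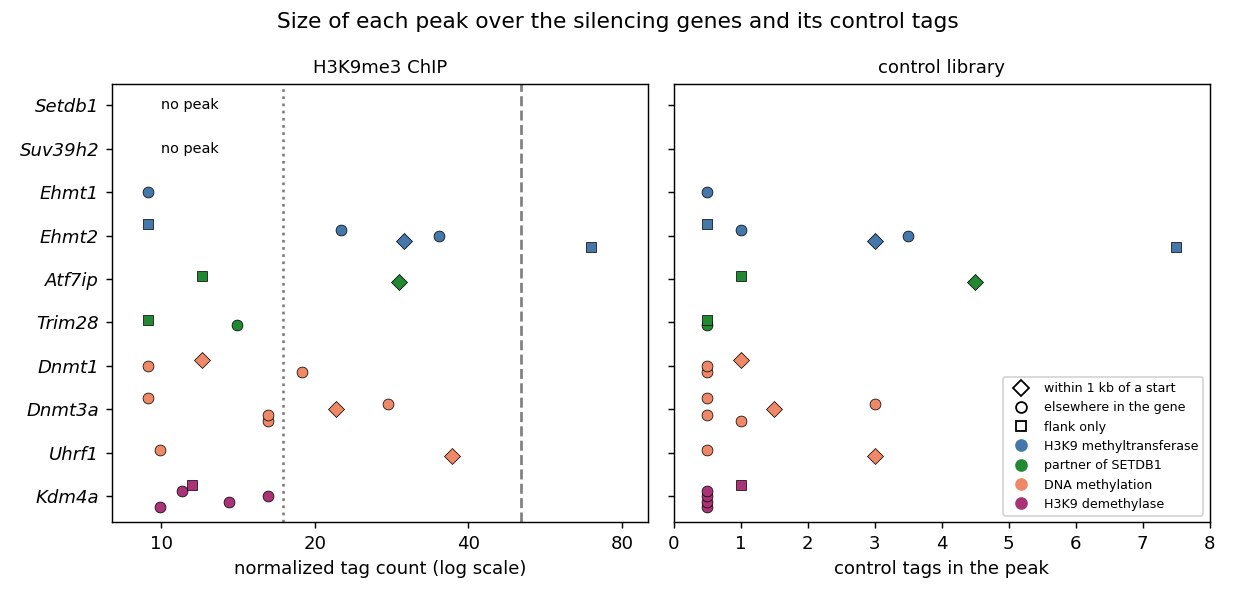
Normalized tag count (left, log scale) and control tags (right) of each of the 25 peaks, 1 row per gene, coloured by role; diamonds lie within 1 kb of a start, circles elsewhere in the gene, squares in a flank only. Dotted and dashed lines mark the median of all peaks (17.3) and the strong-peak threshold (50.8); of the 25 peaks, 16 lie below the median and 1 above the threshold.

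The median height of the 25 peaks was low, but that of the peaks over the gene spans was less so. Normalized tag counts ran from 9.43 to 69.7 with a median of 14.1, where the median was 17.3 over all peaks and 16.2 over those at protein-coding genes. For the 20 peaks over the gene spans the median was 16.2, while the protein-coding value counts peaks in flanks too. Of the 25, 16 (64%) were below the median of all peaks, against 53.6% of peaks at protein-coding genes. Widths ran from 500 to 1909 bp with a median of 752 bp (769 bp over all peaks), and 11 (44%) were exactly 500 bp, against 35.7% of peaks at protein-coding genes and 31.9% of all peaks.

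At 13 of the 25 peaks (52%, against 44.5% of peaks at protein-coding genes and 43% of all peaks) the control stood at its lowest value, 0.5 tag, and there the deposited fold depends on that value. If 0.5 stands for no tag seen, a true level of up to 3 control tags is allowed, and with 3 tags the ratio at those 13 peaks would run from at least 2.07 to at least 4.1. Summed over the 25 peaks, 460.5 ChIP tags stood beside 37.5 control tags, which gave 8.41 times the control after scaling to the control library, against 10.2 times over all peaks and 10.3 times over those at protein-coding genes. These sums weigh tall peaks most, and the median of the authors' deposited folds per peak was 12.3 for the 25, for all peaks and for those at protein-coding genes alike.

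The genes differed widely in density. Peaks per 100 kb of window, which corrects for length, were 19.5 at Ehmt2, 11.8 at Trim28, 9.41 at Kdm4a, 6.63 at Uhrf1, 4.79 at Dnmt1, 4.07 at Dnmt3a, 1.96 at Atf7ip and 0.720 at Ehmt1, and 0 at Setdb1 and Suv39h2. The median of the 10 was 4.43, against 1.07 for all protein-coding genes (quartiles 0 and 5.34) and 1.78 for those of the same range of length. With windows pooled, the density was 4.00 over the 10 genes, 2.12 over all protein-coding genes and 2.69 over those of the same range of length. Of all protein-coding genes, 2.38% were as dense as Ehmt2 and 8.21% as dense as Trim28. The value at Trim28 rests on 2 peaks in a short window, 1 of them over Ube2m.

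**Figure D3:**
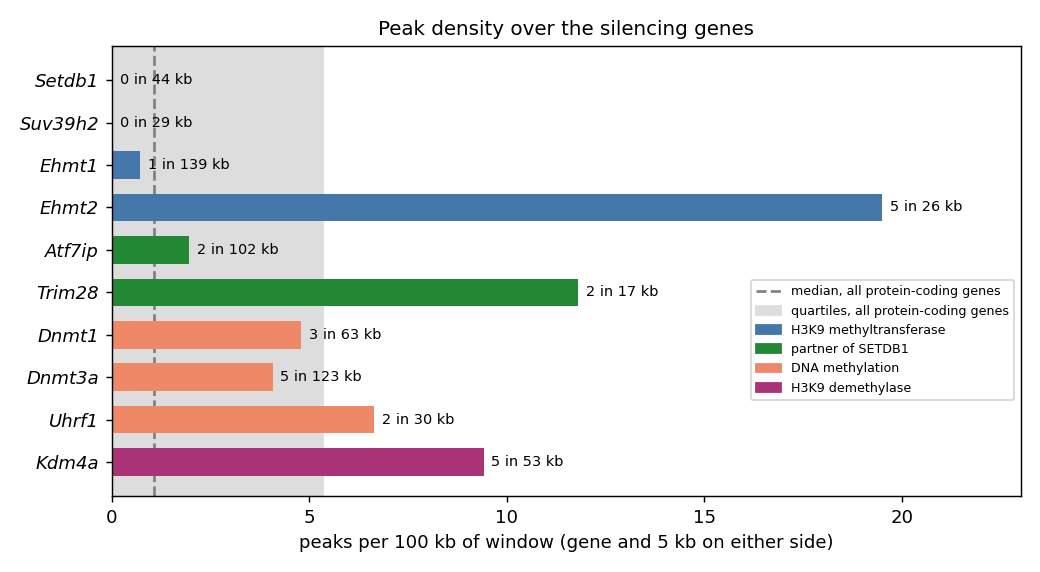
Peaks per 100 kb of each gene with its 5 kb flanks (bars, coloured by role; the number of peaks and the window length are written beside each). The grey band and dashed line are the quartiles (0 and 5.34) and median (1.07) of all protein-coding genes; Ehmt2, Trim28, Kdm4a and Uhrf1 lie above the band.

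Peaks at starts had higher medians than the rest, in tag count and in control, but a lower median fold over control. A peak lay within 1 kb of a listed start at 5 of the 10 genes, Ehmt2, Atf7ip, Dnmt1, Dnmt3a and Uhrf1, while 26.9% of the 17492 protein-coding genes with a listed start had one. With the outermost start alone the count was 3, Ehmt2, Atf7ip and Uhrf1, against 25.6%. The 5 start peaks had a median normalized tag count of 29.3 and the other 20 peaks a median of 12.8. None of the 5 stood at the lowest control value, and 13 of the 20 (65%) did. Over all protein-coding genes with a listed start, 29.4% of start peaks and 49.7% of the other peaks stood at it, and median normalized tag counts were 18.3 and 15.2. Control tags were 2.21 per kb at the median of the 5 start peaks and 1.00 per kb at the other 20, beside 1.59 and 1.00 per kb over all such genes. The median deposited fold over control was 7.87 at the 5 start peaks and 12.3 at the other 20, beside 10.0 and 12.3 over all such genes. With tags summed, start peaks stood at 6.56 times the control and the other 20 at 9.39 times, beside 9.14 and 10.7 times over all such genes. The part of the control in the heights of start peaks was not tested.

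Start peaks were rarest at starts poor in CG over the whole table. Their share was about level from 10 to 29 CG and lower at 30 or more. The motif CG, which reads the same on both strands, was counted in every window. The 21263 windows belong to 17492 genes, and starts of the same gene can share a peak. The intervals below treat each start as separate and so may be too narrow. A peak lay within 1 kb of 5.77% of starts with at most 4 CG (exact Clopper-Pearson 95% interval 5.19 to 6.38%), of 38.8% (36.7 to 40.9%) with 10 to 14, of 40.3% (38.3 to 42.3%) with 20 to 24, and of 28% (26.5 to 29.6%) with 30 or more. Of the 16 listed starts of the 10 genes, 8 had a peak within 1 kb, with 12 to 40 CG, and 8 had none, with 2 to 47 CG. These 8 starts had only 5 peaks between them, because neighbouring starts of Ehmt2, Dnmt1 and Uhrf1 shared a peak. Over all protein-coding genes, 5471 of the 21263 listed starts had a peak within 1 kb. The ranges of CG overlapped, so at these genes the count of CG did not separate starts with a peak from those without.

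**Figure D4:**
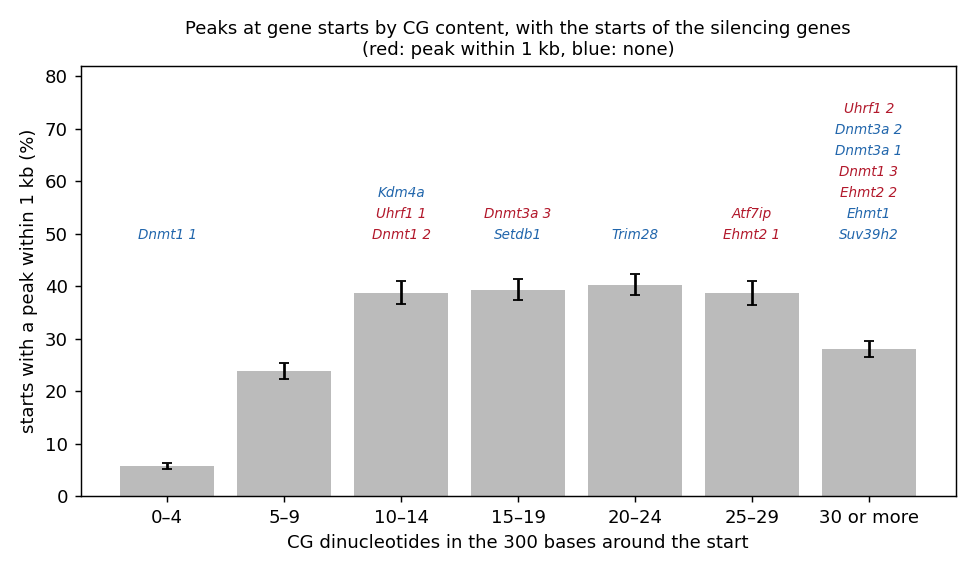
Share of protein-coding gene starts with a peak within 1 kb (y axis, %; bars with exact 95% intervals) by number of CG dinucleotides in the 300-base window (x axis). The listed starts of the 10 genes are written above their bin, red with a peak and blue without, numbered in the direction of transcription; both colours occur in the bins of 10 to 14, 15 to 19, and 30 or more.

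In the wider pathway the share of genes with a peak was near that of the genome. Of 41 other genes of H3K9 and DNA methylation, 24 (58.5%) had a peak, beside 55.6% of protein-coding genes. A strong peak lay at 4 of the 41, beside 6.61% of protein-coding genes, and at Daxx and Mbd1 the tallest touched only the flank. Among H3K9 demethylases 7 of 8 had a peak, led by Phf8 (normalized tag count 69.7), Kdm4c (25.1) and Kdm4d (23), and Jmjd1c had none. Among H3K9 methyltransferases and PRDM proteins 4 of 5 did, with tallest peaks of 90.1 at Mecom, 38.8 at Prdm16 and 21.0 at Prdm2, and Setdb2 had none. Prdm16, a long gene, had 23 peaks, or 6.94 per 100 kb. Denser genes of the wider list were Daxx (24.7 per 100 kb), Mbd1 (19.9), Wiz (15.4) and Tet3 (7.63), beside 19.5 at Ehmt2.

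Partners of the methyltransferases had a peak in 4 of 7 genes. The tallest at Daxx, a histone chaperone, reached 135.7 but lay in its flank, over Tapbp, Zbtb22 and Gm19412, and Atf7ip2, the paralog of Atf7ip, and Wiz, a partner of EHMT2, had tallest peaks of 23.6 each. Zfp57, Zfp644 and Cdyl had none.

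Among readers of the mark, HUSH subunits and related silencers, 3 of 8 genes had a peak. Cbx1, Cbx3 and Cbx5, which encode the HP1 proteins that bind H3K9me3, had no peak, and neither did the reader Mphosph8 and Pphln1, both of the HUSH silencing complex. Tasor, the other HUSH subunit listed, had 1 peak (32.0), and Smchd1 (30.4) and Morc2a (29.3) had 3 and 2. With 5 to 8 genes in a role, no difference between roles was tested.

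On the DNA methylation side, Dnmt3l (27.8, over its neighbour Aire too) and Uhrf2 (12.6) had 1 peak each, and Dnmt3b, Hells and Usp7 had none. Of the readers and erasers of DNA methylation, 4 of 8 had a peak. Mbd1 had the tallest of the wider list, 193.8, which lay in its flank, then Tet1 (45.0) and Tet3 (41.4, the tallest of 8 peaks). Mbd2, Mbd4, Tet2 and Zbtb33 had none.

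**Figure D5:**
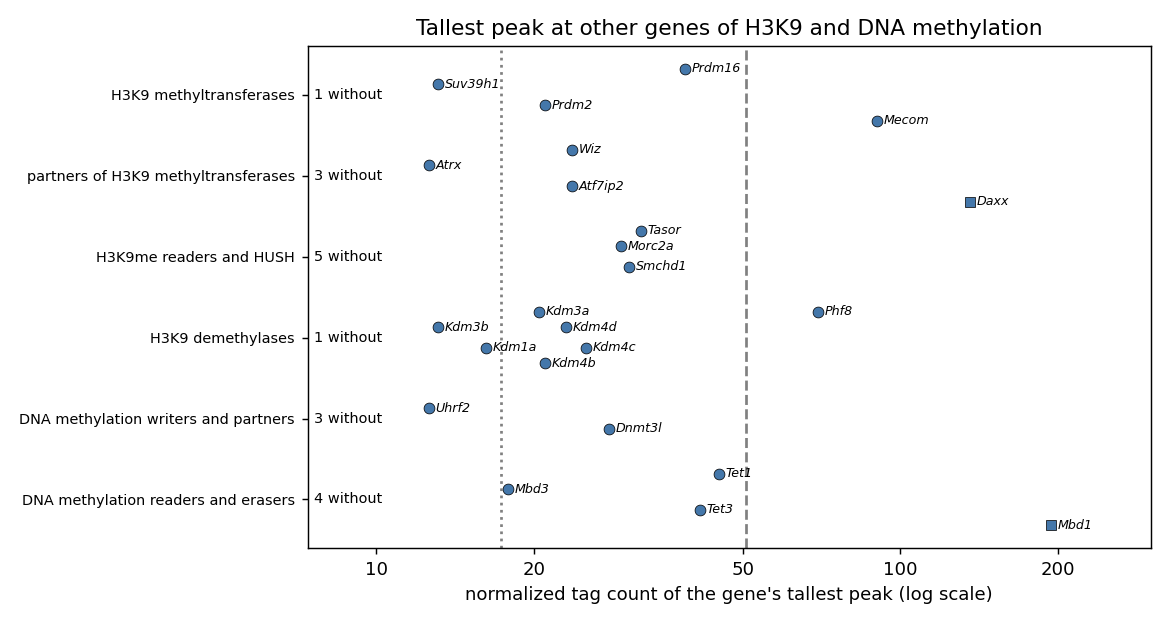
Normalized tag count of the tallest peak (x axis, log scale) at each of the 41 other pathway genes, by role; circles touch the gene span and squares the flank only, and genes without a peak are counted at the left. Dotted and dashed lines stand at 17.3 and 50.8, the median of all peaks and the strong-peak threshold; Mecom, Phf8, Daxx and Mbd1 lie above the latter.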

How the data were processed

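H3K9me3 ChIP-seq of sorted intestinal stem cells was analysed from the deposited peak list of 1 ChIP library, in which the control library appears only as tags inside the peaks. The tools Bowtie2 2.2.8 and HOMER 4.10.1 and the builds GRCm38 and mm10 are named, without their roles, per the submitters' processing notes. The column names are those of findPeaks, per the file headers, and its settings were not given in the sources used here. Per the file headers, the normalized tag count is a coverage signal scaled to a fixed library total, the control tags are a signal in tags, and the deposited fold over control is a ratio. The deposited score and p-value are the caller's own for each peak, and the score was used only to filter within the list. Tags were recovered from the normalized tag count, whose low values were whole steps of 0.5 tag (100% within a tolerance of 0.1 step, 1.05 units per tag). Total library sizes are not in the list, and the control held 0.684 of the tags of the ChIP library.

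Gene spans came from RefSeq (GRCm38.p6), and starts and strand from RefSeq promoter windows. Genes on scaffolds were left out, and the 147 scaffold peaks entered no overlap with genes but stayed in values given for all peaks. Exons, introns and UTRs were not analysed here. Peaks were assigned by overlap of at least 1 bp, which was checked on simulated peaks. Intervals are exact Poisson or Clopper-Pearson at 95%. The Poisson formula was also applied to tag values that were not whole, and there the interval is approximate. All 41 other pathway genes matched by symbol, and 1 further gene is not reported here. The text names every one of the 10 genes with each peak, the genes those peaks overlap, and in each role of the wider list up to 3 genes with the tallest peaks and those without a peak. The genes and lists were chosen with earlier results of these data known. Python 3.11.15 with scipy 1.17.1 was used.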

Additional observations from a re-analysis of the deposited data

How the results depend on the processing

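The number of the 10 genes with a peak stayed between 6 and 8 under the 8 other settings of window, overlap, fold, score, control and merging, while the share of all protein-coding genes ran from 40.8% with the score at or above the median and 41.2% without peaks at the lowest control value to 62.8% with 10 kb on either side. The number of peaks fell from 25 to 13 with the score at or above the list's median, and to 12 without peaks at the lowest control value. The number of genes with a strong peak went from 1 to 0 over the span without flanks, at a fold of 8 or more and for the highest 5% of peaks, and rose to 2 with 10 kb on either side and to 3 for the highest 25%. Genes with a peak at the start numbered 5 with 0.5 or 2 kb on either side and 3 with the outermost start alone, an alternative chosen after seeing the data. For these changed strong-peak and start counts, the share of protein-coding genes is given only for the outermost start (25.6%). The others therefore cannot be set against the genome. The share of protein-coding genes with a peak was 55.6%, or 58.8% among those within the range of length of the 10, which were not matched to them in length. The median normalized tag count was 13.6 at a fold of 8 or more and 16.2 over the span without flanks. The median peak over these genes held 13.5 tags, and no setting changed the depth. No paired analysis was possible because each group has 1 library.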

Other observations

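Just outside the 5 kb flanks, 3 more peaks lay within 10 kb of the 10 genes. The peak at 118187858 to 118190820 on chromosome 4 was 2962 bp wide, 7768 bp before Kdm4a and outside any gene of the table. Its normalized tag count was 88.5, or 84.5 tags (Poisson 95% interval 67.4 to 104.6), beside 3 control tags. It was taller than all 25 peaks over the genes by count, though its interval overlapped that of the peak over Zbtb12. The others lay over S1pr2, beside Dnmt1, with a normalized tag count of 22.0, and over Kdm4b, beside Uhrf1, with 17.8. Farther out, the nearest peak before Trim28 was 15.8 kb away over the zinc finger gene Zbtb45, with a normalized tag count of 41.4, and the nearest beyond Dnmt1 was 10.6 kb away over Eif3g, with 48.2.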
